A study of Mus musculus with 6 samples.

Results

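Cdkn1a, which encodes the cell cycle inhibitor p21, was followed in aged mouse hippocampus together with the transcription factor gene Trp53 and 8 genes of its pathway, Mdm2, Ccng1, Bax, Btg2, Plk3, Sesn1, Sesn2 and Trp53inp1. Genes were taken by their symbol, from array probes annotated with that symbol alone. Of these 10 genes, 8 had such a probe, each a single one, among 14860 genes measured that way on 14996 probes. Trp53 and Bax are not analysed here. Hippocampus was taken from 3 animals labelled HGPS transgenic and 3 labelled wildtype, all 63 weeks old, and RNA of each animal was hybridised to 1 Affymetrix array. HGPS usually stands for Hutchinson-Gilford progeria syndrome, in which a mutant form of lamin A brings on signs of ageing in childhood. The labels used here name no promoter, allele or cell type for the transgene, and neither strain nor sex. Values are log2 expression as deposited, so that a difference of 1 is a 2-fold difference, and the number of arrays limits the precision. Probes differ in sensitivity, so levels are compared between arrays and not between genes.

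The protein p53 is a transcription factor that is held at a low level by the ubiquitin ligase Mdm2 and accumulates after DNA damage and other stress. It then induces genes that stop the cell cycle, trigger cell death, repair DNA or adjust metabolism, and it induces Mdm2 as well, which closes a negative feedback loop. p21 is the best known of the arrest genes and binds cyclin-dependent kinases and the replication clamp PCNA. In neurons, which no longer divide, several of these genes also respond to activity, glucocorticoids or other stress without p53. Activation of p53 is a known feature of cells that carry defects of lamin A.

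The sequence before the transcription start is shown for every measured gene that has an entry in the promoter table, namely Cdkn1a, Btg2, Plk3 and Sesn1, whose groups stood apart, and Mdm2, Ccng1 and Sesn2, whose groups overlapped. RefSeq promoters of the GRCm38.p6 assembly were at hand for 9 of the 10 genes, in 11 windows of 250 bases that end at the base before the start. The windows below are written 5′ to 3′ along the strand of the gene. Capitals mark matches to the p53 half-site consensus, to the GC box GGGCGG, to the cyclic AMP response element TGACGTCA and to the TATA box TATAAA, each on either strand.
Cdkn1a, upstream start, chr17:29090729-29090978, plus strand: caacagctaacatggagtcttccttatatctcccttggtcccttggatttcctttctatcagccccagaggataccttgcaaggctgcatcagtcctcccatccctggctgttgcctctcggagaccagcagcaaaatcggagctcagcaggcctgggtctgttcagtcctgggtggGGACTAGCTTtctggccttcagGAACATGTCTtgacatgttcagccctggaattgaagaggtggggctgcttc
Cdkn1a, downstream start, chr17:29093519-29093768, plus strand: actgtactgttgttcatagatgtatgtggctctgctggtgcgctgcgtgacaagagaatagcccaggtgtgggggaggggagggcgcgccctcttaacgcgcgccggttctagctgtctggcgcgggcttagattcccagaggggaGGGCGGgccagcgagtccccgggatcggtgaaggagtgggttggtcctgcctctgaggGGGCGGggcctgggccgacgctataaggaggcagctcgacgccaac
Btg2, chr1:134079156-134079405, minus strand: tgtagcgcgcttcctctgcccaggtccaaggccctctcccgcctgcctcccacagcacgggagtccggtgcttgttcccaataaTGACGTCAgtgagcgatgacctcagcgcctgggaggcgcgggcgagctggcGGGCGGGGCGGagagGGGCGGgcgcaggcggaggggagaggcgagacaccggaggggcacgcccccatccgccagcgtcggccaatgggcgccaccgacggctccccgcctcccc
Plk3, chr4:117133964-117134213, minus strand: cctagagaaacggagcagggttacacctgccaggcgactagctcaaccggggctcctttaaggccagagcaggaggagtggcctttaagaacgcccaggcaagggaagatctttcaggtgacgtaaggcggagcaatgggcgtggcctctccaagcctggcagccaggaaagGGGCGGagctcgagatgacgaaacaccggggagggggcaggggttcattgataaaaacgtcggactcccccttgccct
Mdm2, chr10:117710759-117711008, minus strand: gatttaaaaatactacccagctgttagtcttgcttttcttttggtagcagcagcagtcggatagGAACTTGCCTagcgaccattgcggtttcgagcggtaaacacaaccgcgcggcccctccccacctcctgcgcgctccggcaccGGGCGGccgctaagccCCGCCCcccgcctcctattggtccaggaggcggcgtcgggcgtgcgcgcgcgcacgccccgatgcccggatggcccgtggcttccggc
Ccng1, chr11:40755287-40755536, minus strand: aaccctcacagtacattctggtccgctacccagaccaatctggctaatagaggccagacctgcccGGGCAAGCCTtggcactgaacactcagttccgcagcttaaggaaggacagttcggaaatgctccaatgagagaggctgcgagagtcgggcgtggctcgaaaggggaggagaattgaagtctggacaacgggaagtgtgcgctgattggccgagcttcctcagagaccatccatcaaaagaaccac
Sesn1, upstream start, chr10:41810324-41810573, plus strand: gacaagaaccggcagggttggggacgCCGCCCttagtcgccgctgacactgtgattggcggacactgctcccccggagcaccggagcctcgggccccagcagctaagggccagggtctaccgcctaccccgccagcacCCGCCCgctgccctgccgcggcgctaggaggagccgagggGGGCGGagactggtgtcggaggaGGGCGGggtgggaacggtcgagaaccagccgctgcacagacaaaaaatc
Sesn1, downstream start, chr10:41887189-41887438, plus strand: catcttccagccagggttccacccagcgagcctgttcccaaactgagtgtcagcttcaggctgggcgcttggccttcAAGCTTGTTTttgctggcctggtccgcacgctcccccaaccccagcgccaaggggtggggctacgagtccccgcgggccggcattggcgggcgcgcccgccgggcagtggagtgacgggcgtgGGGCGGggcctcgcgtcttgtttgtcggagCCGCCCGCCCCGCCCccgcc
Sesn2, chr4:132510457-132510706, minus strand: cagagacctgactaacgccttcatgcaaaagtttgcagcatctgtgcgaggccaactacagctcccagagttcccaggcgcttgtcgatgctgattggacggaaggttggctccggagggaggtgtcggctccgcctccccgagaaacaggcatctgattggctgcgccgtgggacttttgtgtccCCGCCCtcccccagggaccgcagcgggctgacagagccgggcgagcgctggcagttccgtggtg

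The upstream start of Cdkn1a had 2 matches to the p53 half-site, beginning 73 and 51 bases before the start, and no GC box. Its downstream start had 2 GC boxes, 104 and 46 bases before the start, and no half-site match. Upstream p53 sites of Cdkn1a are well known in mouse and human. The window of Btg2 held 3 GC boxes, of which a neighbouring pair overlaps, and a cyclic AMP response element 166 bases before the start, and that of Plk3 held 1 GC box. Mdm2 and Ccng1 each had 1 half-site match, 186 and 185 bases before the start. Sesn1 had 4 GC boxes at each start and a half-site match 173 bases before the downstream one, and Sesn2 had 1 GC box and no half-site match. Half-site matches thus occurred both among genes whose groups stood apart and among genes whose groups overlapped. A half-site match was present in 6 of the 11 windows and in 7.13% of 32851 mouse promoter windows of the same length. GC boxes were present in 8 of the 11 windows and in 32.7% of all, the cyclic AMP response element in 1.55% of all and the TATA box in 12.4% of all. The 10 genes had been picked as p53 pathway genes, and a match is a description of these letters only.

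None of the 8 measured genes passed a false discovery rate of 10%, the rate stated for the series, in the comparison of transgenic with wildtype hippocampus. With 3 animals per group, no exact permutation p (two-sided) can be smaller than 0.1. In limma, with Benjamini-Hochberg adjustment over all 14996 probes, 7 probes (0.0467%) passed, all of them lower in the transgenic group, and none of the 7 was a p53 pathway gene of the lists used here. In 5 of the 8, Cdkn1a, Btg2, Plk3, Trp53inp1 and Sesn1, all 3 transgenic animals lay above all 3 wildtype animals. Over all probes this held for 9.14%, and the opposite order held for 8.55%. The same 5 genes had an unadjusted limma p under 0.05, as had 5.81% of all probes in the higher direction and 4.8% in the lower. Of the 8 genes 6 were above 0, as were 49.9% of all probes. The median log2 difference was 0.22 over the 8 genes and -0.00016 over all probes. The genes were chosen with earlier results of these data known, so these counts are no independent evidence. The labels number the replicates within each group, and each replicate is taken here as a separate animal. In tissue RNA a shift in cell makeup and a change of RNA per cell cannot be told apart.

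The wildtype animals were not alike. Averaged over the Y-linked genes Eif2s3y and Kdm5d, the log2 level was 4.67, 4.78 and 4.70 in transgenic replicates 1, 2 and 3. In wildtype replicates 1, 2 and 3 it was 4.63, 8.41 and 8.45. Wildtype replicates 2 and 3 therefore carried the signal of male animals and the other 4 arrays did not. Differences of the 8 genes are also given against wildtype replicate 1 alone, without a test since it is 1 animal, and that of Cdkn1a from a fit in which the Y-linked signal was a covariate. Genotype and this signal are partly confounded, and no transgenic array carried the signal. The covariate fit therefore rests mostly on wildtype replicate 1 and is no separate check beside the difference from that animal.

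**Figure D1:**
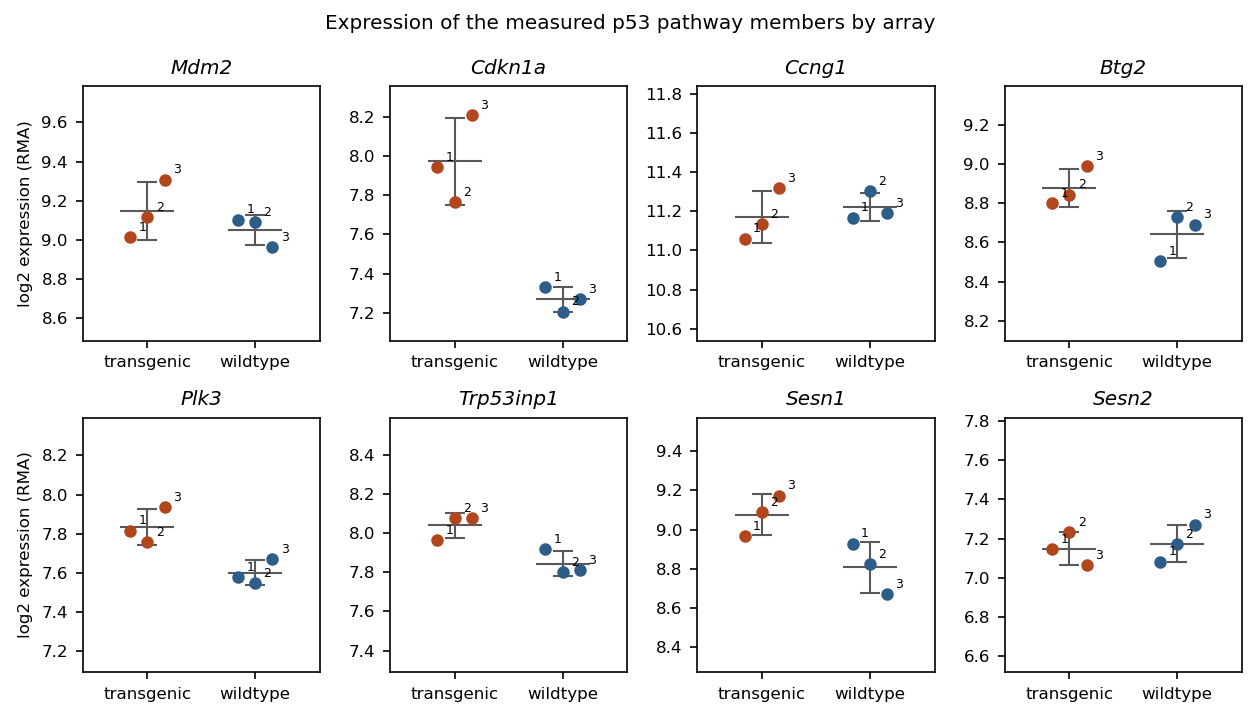
Log2 expression (RMA values, y axis) of the 8 measured genes in each animal, with transgenic animals on the left and wildtype animals on the right of each panel. Points are arrays, numbered by replicate, with the mean and SD of each group, and all panels span the same log2 range. Cdkn1a has the widest gap between groups, 7.77 to 8.21 in transgenic and 7.21 to 7.33 in wildtype animals, while the groups overlap in Mdm2, Ccng1 and Sesn2.

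Among the genes that act on p53 itself, Mdm2, its ubiquitin ligase and feedback target, differed little. It had log2 levels of 9.02, 9.12 and 9.31 in transgenic replicates 1, 2 and 3, against 9.10, 9.09 and 8.96 in wildtype replicates 1, 2 and 3. The groups overlapped, with transgenic replicate 1 below 2 of the wildtype animals. The difference was 0.10 ± 0.09 (SE, n = 3 per group), with a 95% interval of -0.12 to 0.31 and a limma adjusted p of 0.707. A rise of more than 0.31, or a fall of more than 0.12, lay outside that interval. Against wildtype replicate 1 alone the difference was 0.04, and it was 0.01 without transgenic replicate 3 and 0.16 without transgenic replicate 1.

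The other measured genes of p53 and its regulators were flat. Of 17, counting Mdm2, 6 were above 0 and 11 below, with a median difference of -0.02. None had an unadjusted p under 0.05 or groups that did not overlap. Over all probes 10.6% had such a p in either direction, and the groups stood apart in 9.14% as higher and in 8.55% as lower. The smallest unadjusted p belonged to the p53 family gene Trp63, at -0.10 ± 0.07 (SE, limma adjusted p = 0.610). Atm, the kinase that signals DNA double-strand breaks to p53, had a difference of -0.09 ± 0.06 (limma adjusted p = 0.617). Rchy1, another ubiquitin ligase of p53, had a difference of 0.08 ± 0.07 (limma adjusted p = 0.701). All 17 log2 differences lay between -0.12 and 0.10.

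Cdkn1a had the largest difference of the 8 genes. Its log2 levels were 7.94, 7.77 and 8.21 in transgenic replicates 1, 2 and 3, against 7.33, 7.21 and 7.27 in wildtype replicates 1, 2 and 3. The lowest transgenic animal stood above the highest wildtype animal, and the transgenic animals spread more widely, with means ± SD of 7.97 ± 0.22 and 7.27 ± 0.06 (n = 3 each). The difference was 0.70 ± 0.11 (SE), or 1.63-fold, with a 95% interval of 0.44 to 0.97. It did not pass over all probes (limma adjusted p = 0.324), and the exact permutation p was 0.1, the smallest possible. Cdkn1a ranked at position 18 of the 14996 probes by p and at position 35 among the higher probes by size. Relative to the wildtype mean, the 3 transgenic animals stood at 160%, 141% and 192% in replicate order.

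The difference of Cdkn1a was nearly as large against the wildtype animal without the Y-linked signal. It was 0.64 against wildtype replicate 1 and 0.73 against wildtype replicates 2 and 3, and 0.64 ± 0.16 (SE, limma adjusted p = 0.99999) with the signal as a covariate. Leaving out each array in turn gave 0.59 to 0.81, the lowest without transgenic replicate 3. The limma adjusted p was 0.1001, just above the rate, with trend and robust estimation, and 0.103 without the dimmest 33.3% of probes.

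Ccng1, the cyclin G1 gene and a direct p53 target, did not follow Cdkn1a. It had log2 levels of 11.06, 11.14 and 11.32 in the transgenic animals, against 11.17, 11.30 and 11.19 in the wildtype animals. The highest and the lowest of the 6 arrays were both transgenic. The difference was -0.05 ± 0.08 (SE, limma adjusted p = 0.837), with a 95% interval of -0.25 to 0.15 that lies below the whole interval of Cdkn1a. Against wildtype replicate 1 alone it was 0.0031. A test of the difference between these genes was not made.

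Btg2, an antiproliferative gene that p53 and neuronal activity both induce, had log2 levels of 8.80, 8.84 and 8.99 in the transgenic animals, against 8.51, 8.73 and 8.69 in the wildtype animals. The groups stood apart by 0.07 between the nearest animals. The difference was 0.24 ± 0.09 (SE, limma adjusted p = 0.433). Unlike Cdkn1a, Btg2 was lowest in wildtype replicate 1, so that its difference was 0.37 against that animal and 0.17 against wildtype replicates 2 and 3. Plk3, a polo-like kinase of the stress response, had log2 levels of 7.82, 7.76 and 7.94 in the transgenic animals, against 7.58, 7.55 and 7.67 in the wildtype animals. Its difference was 0.24 ± 0.07 (SE, limma adjusted p = 0.431), and it was 0.26 against wildtype replicate 1 and 0.22 against wildtype replicates 2 and 3. Plk3 thus kept close to the same size whichever wildtype animals it was set against.

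Of the 13 measured arrest targets, 9 were above 0 with a median of 0.07. An unadjusted p under 0.05 was found in 4, all higher, and in 5.81% of all probes in that direction. The only one of the 4 outside the genes above was Sfn, the 14-3-3 sigma gene, with log2 levels of 7.83, 8.003 and 8.01 in the transgenic animals, against 7.74, 7.67 and 7.69 in the wildtype animals. Its difference was 0.25 ± 0.07 (SE, limma adjusted p = 0.431), and 0.21 against wildtype replicate 1. The difference of Gadd45a, a classical arrest target, was 0.01 ± 0.10 (SE, limma adjusted p = 0.985). That of Plk2, a relative of Plk3 that is abundant in activated neurons, was 0.07 ± 0.07 (limma adjusted p = 0.734). Gadd45a and Plk2 were named after their values were seen.

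**Figure D2:**
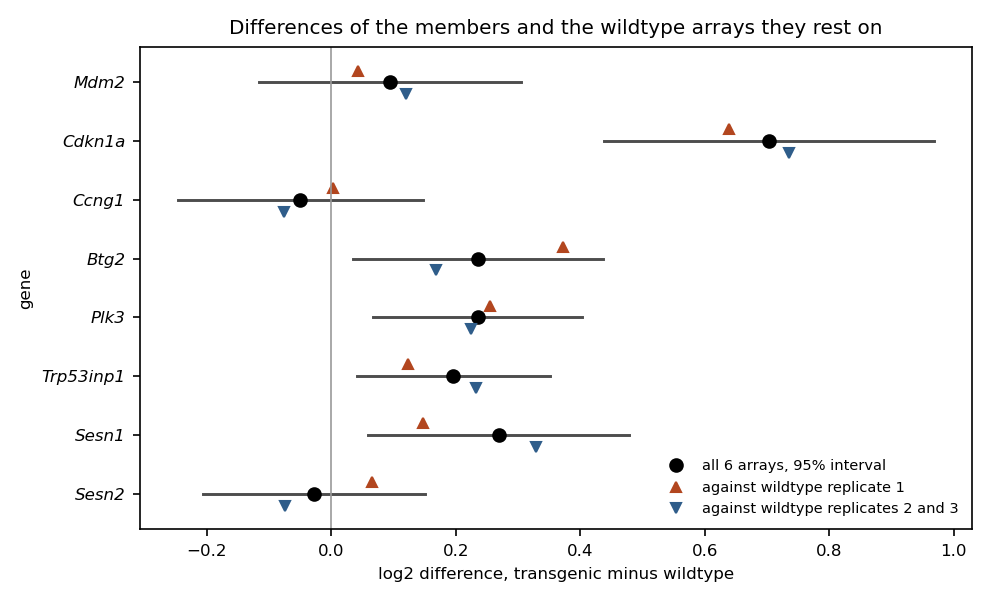
Log2 difference, transgenic minus wildtype (x axis), of each measured gene (y axis). Black points and lines are the limma estimate over all 6 arrays and its 95% interval, upward triangles the difference from wildtype replicate 1 alone, and downward triangles that from wildtype replicates 2 and 3. The interval of Cdkn1a runs from 0.44 to 0.97, and the triangles of Btg2 and Sesn1 lie on opposite sides of their black points in opposite order.

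On the cell death side, Trp53inp1, which promotes p53 phosphorylation and autophagy, had log2 levels of 7.96, 8.08 and 8.08 in the transgenic animals, against 7.92, 7.80 and 7.81 in the wildtype animals. The nearest animals of the groups, both of replicate number 1, were 0.05 apart. The difference was 0.20 ± 0.07 (SE, limma adjusted p = 0.432), and it was 0.12 against wildtype replicate 1. Of the 16 measured death targets 9 were above 0, with a median of 0.05. Trp53inp1 alone had an unadjusted p under 0.05, as had 5.81% of all probes in the higher direction.

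Zmat3, a zinc finger gene that p53 induces, lay the other way, with groups that did not overlap. Its log2 levels were 8.64, 8.57 and 8.51 in the transgenic animals, against 8.66, 8.71 and 8.81 in the wildtype animals, and the difference was -0.15 ± 0.07 (SE, limma adjusted p = 0.476), and -0.09 against wildtype replicate 1. Perp, a desmosome and apoptosis gene, had a difference of 0.44 ± 0.26 (limma adjusted p = 0.562). Wildtype replicate 1 had a Perp level of 8.22, within the transgenic range of 7.84 to 8.26, while the other wildtype animals were at 7.28 and 7.29, and the difference from that animal alone was -0.18. Among the apoptosis genes that p53 induces directly, Bbc3 had a difference of -0.14 ± 0.11 and Pmaip1 one of 0.11 ± 0.10 (limma adjusted p = 0.643 and 0.698). Bbc3 and Pmaip1 were named after their values were seen.

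The sestrins are stress proteins that restrain the growth regulator mTORC1, and Sesn1 and Sesn2 differed from each other in pattern. Sesn1 had log2 levels of 8.97, 9.09 and 9.17 in the transgenic animals, against 8.93, 8.82 and 8.67 in the wildtype animals. The difference was 0.27 ± 0.09 (SE, limma adjusted p = 0.432), with a 95% interval of 0.06 to 0.48. It was 0.15 against wildtype replicate 1 and 0.33 against wildtype replicates 2 and 3, and wildtype replicate 1 lay 0.04 below the nearest transgenic animal. Sesn2 had log2 levels of 7.15, 7.23 and 7.06 in the transgenic animals, against 7.08, 7.17 and 7.27 in the wildtype animals. Its groups overlapped, and the difference was -0.03 ± 0.08 (limma adjusted p = 0.908), with a 95% interval of -0.21 to 0.15. The sign of Sesn2 turned to 0.07 against wildtype replicate 1. Sesn3, also measured, had overlapping groups and a difference of -0.05 ± 0.06 (limma adjusted p = 0.767), and -0.12 against wildtype replicate 1. Sesn3 was named after its values were seen.

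Of the 11 measured metabolic and stress targets 8 were above 0, with a median of 0.06. All higher, 4 had an unadjusted p under 0.05, as had 5.81% of all probes in that direction. Besides Sesn1 these were Ddit4, Ephx1 and Gpx1. Ddit4, which inhibits mTORC1 and is also a glucocorticoid target, had a difference of 0.25 ± 0.09 (SE, limma adjusted p = 0.433). Ephx1, the microsomal epoxide hydrolase gene, differed by 0.43 ± 0.16 (limma adjusted p = 0.438). Its 3 transgenic animals lay between 8.60 and 8.74, and wildtype replicates 1, 2 and 3 were at 8.60, 7.92 and 8.20. The fourth was the glutathione peroxidase gene Gpx1, at 0.18 ± 0.07 (limma adjusted p = 0.462). Against wildtype replicate 1 alone these differences were smaller, 0.10 for Ddit4, 0.07 for Ephx1 and 0.07 for Gpx1.

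The 5 measured DNA repair targets had log2 differences between -0.06 and 0.07. Polk, a translesion polymerase gene, had a difference of 0.07 ± 0.06 (SE, limma adjusted p = 0.670), and the nucleotide excision repair gene Xpc one of 0.05 ± 0.06 (limma adjusted p = 0.744). Fancc, of the Fanconi pathway of crosslink repair, had a difference of -0.06 ± 0.06 (limma adjusted p = 0.748). None of the 5 had groups that did not overlap, against 9.14% of all probes as higher and 8.55% as lower. With 5 genes and such shares, that count says little about DNA repair targets.

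Secreted and surface targets had the highest median of the 6 p53 lists, 0.16 over 7 genes. Of these 3 were higher at an unadjusted p under 0.05, as were 5.81% of all probes. Thbs1, the thrombospondin gene of the vessel wall and matrix, had log2 levels of 8.19, 7.89 and 7.95 in the transgenic animals, against 7.87, 7.25 and 7.25 in the wildtype animals. The difference was 0.55 ± 0.18 (SE, limma adjusted p = 0.432), but wildtype replicate 1 lay only 0.01 below the nearest transgenic animal, and the difference from that animal alone was 0.14. Igfbp3, a secreted binding protein of insulin-like growth factors, had a difference of 0.37 ± 0.10 and the urokinase gene Plau one of 0.16 ± 0.06 (limma adjusted p = 0.431 and 0.439). Against wildtype replicate 1 alone they had 0.22 and 0.20.

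**Figure D3:**
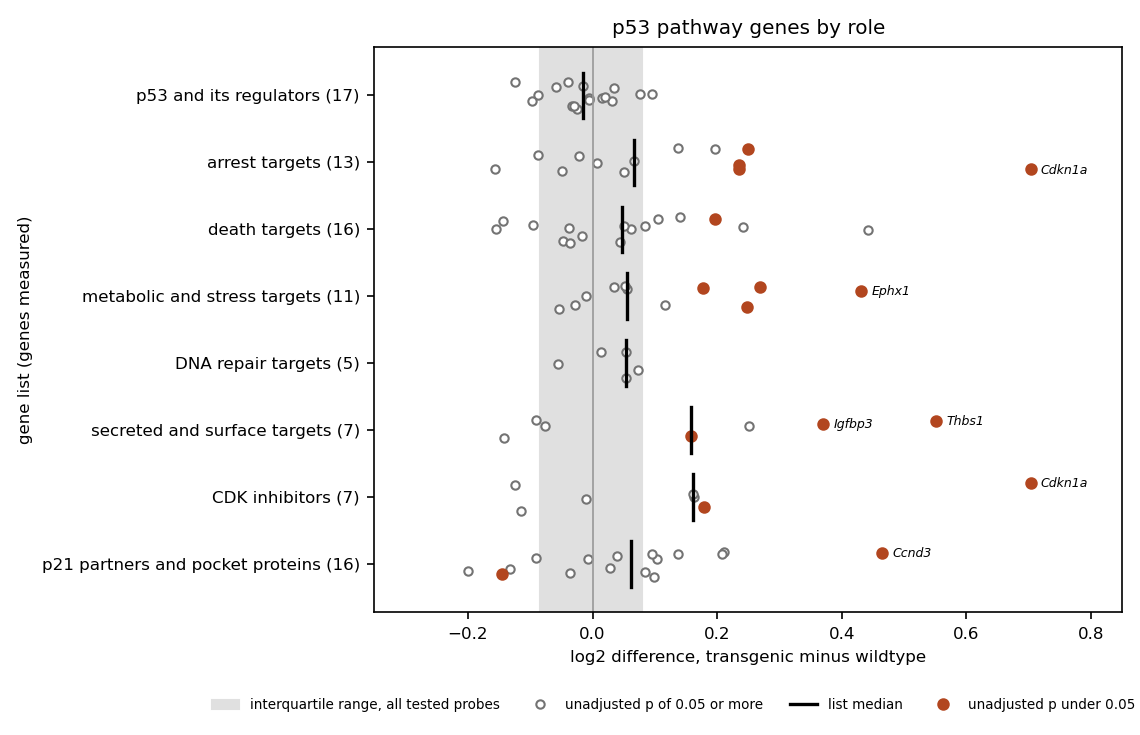
Log2 difference, transgenic minus wildtype (x axis), of every measured gene in 8 lists by role (y axis, with the number of genes measured). Filled points have an unadjusted limma p under 0.05, open points do not, black bars are list medians, and the grey band is the interquartile range of all tested probes, -0.08 to 0.08. The point at 0.70 is Cdkn1a, which stands in 2 lists, while the 17 p53 regulators lie around 0.

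Around p21 itself, the other CDK inhibitors of its family lay above 0 by less. Cdkn1b, the p27 gene, had log2 levels of 8.68, 8.77 and 8.77 in the transgenic animals, against 8.63, 8.46 and 8.59 in the wildtype animals. Its difference was 0.18 ± 0.07 (SE, limma adjusted p = 0.443), and that of Cdkn1c, the p57 gene, was 0.16 ± 0.07 (limma adjusted p = 0.488). The groups did not overlap in either gene, and against wildtype replicate 1 alone the differences were 0.11 for Cdkn1b and 0.19 for Cdkn1c. Of the 7 measured CDK inhibitors 4 were above 0, with a median of 0.16. The limma 95% interval of Cdkn1a, 0.44 to 0.97, began above the upper bound of Cdkn1b, 0.34, though no test of that difference was made.

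Among 16 measured partners of p21 and pocket proteins, 10 were above 0 with a median of 0.06. Ccnd3, a D-type cyclin that p21 binds, had log2 levels of 8.84, 8.70 and 8.98 in the transgenic animals, against 8.56, 8.34 and 8.23 in the wildtype animals. The difference was 0.46 ± 0.11 (SE, limma adjusted p = 0.431), the largest of this list, and 0.28 against wildtype replicate 1 alone. Its catalytic partner Cdk4 had a difference of 0.14 ± 0.06 (limma adjusted p = 0.501), with groups that did not overlap, and 0.08 against that animal. Lin54, the DNA-binding subunit of the DREAM repressor complex through which p21 silences cell cycle genes, was at -0.15 ± 0.06 (limma adjusted p = 0.443), and at -0.15 against that animal. It was the only one of the 90 measured pathway genes that was lower at an unadjusted p under 0.05. In this list the groups did not overlap in 2 genes as higher, Ccnd3 and Cdk4, and in 2 as lower, among them Lin54. Over all probes these shares were 9.14% and 8.55%.

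Over all 8 lists, 90 genes were measured, and 53 lay above 0 and 37 below, with a median difference of 0.04. In the higher direction 14 genes (15.6%) had an unadjusted p under 0.05, against 5.81% of all probes, and in the lower direction 1 gene (1.11%), against 4.8%. Without the 8 genes described first, 9 of 82 (11.0%) were higher. None of the 90 passed the false discovery rate. The count of 14 was 7 without transgenic replicate 3 and 6 without wildtype replicate 3. With the Y-linked covariate 2 were left, Cdkn1a and Btg2, where 1.62% of all probes were higher at that p. That fit rests mostly on wildtype replicate 1 and is less precise, with an SE for Cdkn1a of 0.16 against 0.11 without the covariate. In 11 of the 14 genes wildtype replicate 1 was the highest of the wildtype animals, and in all 14 the 3 transgenic animals lay above it. The share of all probes with either order was not counted, and the 14 were picked by their group difference.

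Transgenic replicate 3 was the highest of the transgenic animals in 7 of the 8 genes described first, in Trp53inp1 level with replicate 2 to 2 decimals, and the lowest in Sesn2. Over all probes this array was the highest of the transgenic arrays in 42.4% and the lowest in 30%. All 8 values of an array come from the same animal, so the 8 genes are not separate observations of that animal.

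Averaged by list, markers of blood vessels and of the brain surface were higher in the transgenic group, but not all lists separated the single animals. The 10 meningeal markers, averaged as log2 level minus the 6-array mean, stood at 0.34, 0.49 and 0.26 in transgenic replicates 1, 2 and 3, against 0.24, -0.64 and -0.69 in wildtype replicates 1, 2 and 3. Their summed signal on the linear scale ran from 9385 to 10837 in the transgenic animals and from 4777 to 8955 in the wildtype animals. Ptgds, with a log2 difference of 1.19, was the brightest of the 10 by mean level and so the heaviest in that sum. The summed signal of 9 pericyte and smooth muscle markers was 6023 to 6514 in transgenic and 3521 to 5738 in wildtype animals. Vtn and Acta2, the brightest of the 9 by mean level and so the heaviest in that sum, had log2 differences of 0.64 and 1.36. Of the 9, 8 were above 0, but Abcc9 was at 0.04 and Kcnj8 at -0.0026. The summed signal of 7 endothelial markers was 2342 to 2518 in transgenic and 1896 to 2199 in wildtype animals. That of 6 choroid plexus markers was 6106 to 11024 in transgenic and 2912 to 10262 in wildtype animals. Ttr, with a log2 difference of 0.70, was the brightest of these 6 and so the heaviest in their sum. Of the markers of these 4 lists Lum alone was in the lowest 25% of the tested probes by mean level.

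In the list averages of meningeal, choroid plexus, and pericyte and smooth muscle markers, wildtype replicate 1 was close to or within the transgenic range. In the average of the endothelial markers it lay below all 3 transgenic animals. Taken singly, Pecam1, Tek and Slco1a4 had wildtype replicate 1 within the transgenic range. The endothelial list had a mean relative log2 level of 0.19, 0.10 and 0.08 in transgenic replicates 1, 2 and 3, against -0.02, -0.24 and -0.11 in wildtype replicates 1, 2 and 3. In 4 of its 7 genes the groups did not overlap, with transgenic higher, as in 9.14% of all probes. Cdkn1a was at 7.77 to 8.21 in the transgenic animals, against 7.33 in wildtype replicate 1, its highest wildtype level. The part of these cell types in the differences of the pathway genes was not tested further. The 9 measured neuronal markers were all among the brightest 25% of the probes, with a summed signal of 37491 to 39313 in transgenic and 38353 to 40479 in wildtype animals, and the median difference of these markers was 0.0049 on the log2 scale. The 5 astrocyte markers summed to 7404 to 8291 in transgenic and 6984 to 7505 in wildtype animals. For 5 oligodendrocyte markers the sums were 8179 to 9671 in transgenic and 7617 to 8521 in wildtype animals. For 6 microglial markers they were 1735 to 1805 in transgenic and 1773 to 1883 in wildtype animals.

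**Figure D4:**
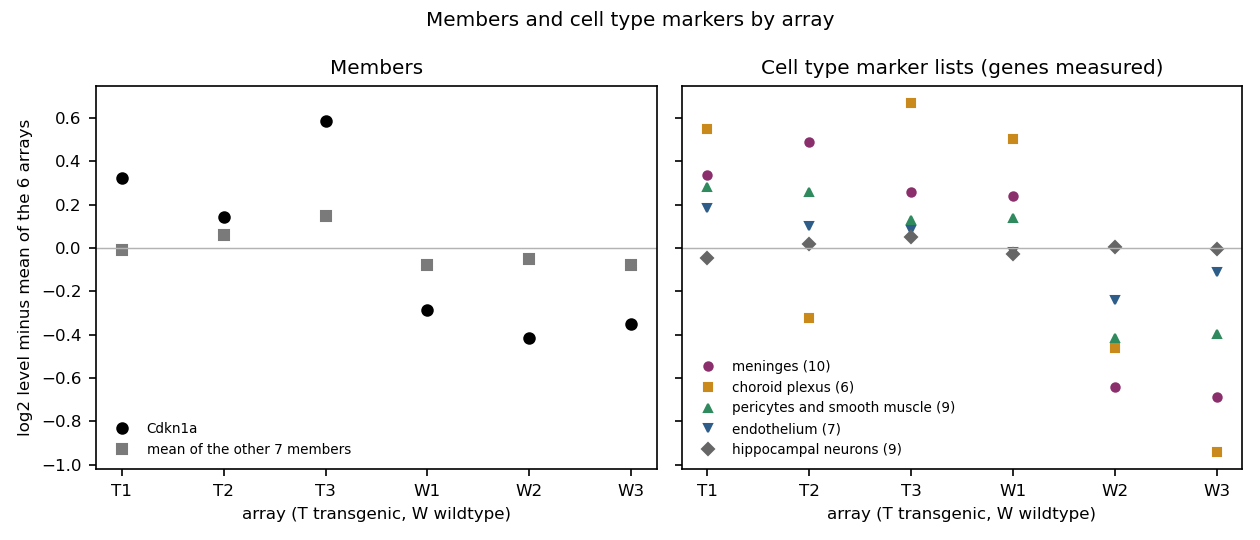
Log2 level minus the mean of the 6 arrays (y axis) in each array (x axis, T for transgenic and W for wildtype replicates), for Cdkn1a and the mean of the other 7 measured genes on the left and for 5 marker lists on the right. Meningeal markers are at 0.24 in wildtype replicate 1 and at -0.64 and -0.69 in wildtype replicates 2 and 3. Cdkn1a and the endothelial markers are each below their mean in all 3 wildtype arrays.

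By Pearson correlation of log2 values over the 6 arrays, the gene most like Cdkn1a among 14859 others was Pgd, of the pentose phosphate pathway, with r = 0.99. It was followed by the muscle-type phosphofructokinase gene Pfkm, the lysosomal cystine transporter gene Ctns, the matrix gene Smoc2 and Cmtm4, each also at r = 0.99. In all 5 the groups did not overlap, and their log2 differences ran from 0.11 for Smoc2 to 0.26 for Pfkm, smaller than that of Cdkn1a. Of the pathway genes described first, Plk3 was nearest, with r = 0.96, while Mdm2 had r = 0.61, Ccng1 r = -0.08 and Sesn2 r = -0.43. An r of 0.9 or more was reached by 2.93% of genes. With 6 arrays in groups that stand apart in Cdkn1a, such an r mostly restates the group difference, and it is given as a description.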

How the data were processed

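RNA of the hippocampus of 3 transgenic and 3 wildtype mice was measured on 1 Affymetrix array per animal. The deposited table holds log2 values for each probe. Per the submitters' processing notes the authors used RMA, which corrects background, normalizes between arrays and summarises probes, and the build mm8. Such values compress differences of dim probes. For RMA's version and for filters, the sources used here give nothing.

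Of 23332 probes, 14996 had 1 gene symbol in GEO's platform annotation and were tested, 1019 had several and 7317 are unnamed here. The test of transgenic against wildtype used limma 3.58.1 (R 4.3.3; lmFit, eBayes, no covariate, two-sided, Benjamini-Hochberg over the 14996 probes, false discovery rate of 10%). The 2-fold limit stated for the series was met by 0 of the probes that passed. Standard errors are limma's moderated ones, intervals are at 95%, and the median residual SD was 0.098. The fit was tested on simulated data. Sequences came from RefSeq (GRCm38.p6), searched in Python 3.11.15.

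The 10 genes and the lists were chosen with earlier results of these data known. Beyond the 10 genes, the 3 genes with the smallest p per list and the 5 most like Cdkn1a were named. Where a gene had several probes, the one with the highest mean was used.

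Alternatives were a further quantile normalization, leaving out the dimmest 33.3%, eBayes with trend and robust estimation, testing all probes, averaging a gene's probes, the replicate number as a block, leaving out each array, the mean level of Eif2s3y and Kdm5d as a covariate, and leaving out the wildtype arrays with that signal.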

Additional observations from a re-analysis of the deposited data

How the results depend on the processing

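The 14 alternatives changed no call of the 8 genes, since none passed under any of those with a test, the limma adjusted p of Cdkn1a lying between 0.1001 and 0.99999. Cdkn1a, Mdm2, Btg2, Plk3, Sesn1 and Trp53inp1 stayed above 0 throughout, although Mdm2 ran from 0.014 to 0.16 with an array left out. Ccng1 turned to 0.00086 with the Y-linked covariate and to 0.0031 without the wildtype arrays that carry it, and Sesn2 to 0.064 and 0.066. Without those arrays Btg2 was at 0.37, Sesn1 at 0.15 and Trp53inp1 at 0.12. With each array left out in turn, Ccng1 ran from -0.12 to 0.0061 (without transgenic replicate 1) and Sesn2 from -0.074 to 0.021 (0.014 without transgenic replicate 3). The cause of these shifts was not tested.

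The 7 probes called over the table became 12 with trend and robust estimation, 0 with all probes, 0 with the covariate, 0 with the replicate number as a block and 0 to 103 with an array left out, 103 being without wildtype replicate 1 and 0 without wildtype replicate 2 or 3 or transgenic replicate 1 or 2. The 14 pathway genes higher at an unadjusted p under 0.05 became 2 with the covariate and 6 to 16 with an array left out. The 1 lower gene became 3 with quantile normalization, 2 without the dimmest probes, 2 with trend and robust estimation, 0 with the covariate and 0 to 3 with an array left out, 3 being without transgenic replicate 1 and 0 without transgenic replicate 2 or 3 or wildtype replicate 3. The labels do not say whether same-numbered animals were paired. Deviations of same-numbered animals from their group means correlated at r = 0.23, 0.15 and 0.02, and animals of unlike number were not compared. With the replicate number as a block the limma adjusted p of Cdkn1a was 0.315, and no call of the 8 genes changed. The count of 3 animals per group and the single wildtype animal without the Y-linked signal limit every comparison.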
